A study of Mus musculus with 22 samples.

Results

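Transcript levels of 10 genes of the matrix metalloproteinase system were examined in mouse bone marrow-derived macrophages (BMDM): the proteases Mmp2, Mmp8, Mmp9, Mmp12, Mmp13, Mmp14 and Mmp19 and the inhibitors Timp1, Timp2 and Timp3. The genes were taken by name, and every array probe whose RefSeq accession belongs to 1 of them was used. This gave 12 probes, 2 each for Mmp12 and Timp2 and 1 for each other gene. All 10 genes were among the 22383 genes tested, because each had a probe that was well above background on at least 3 of the 22 arrays. Where a gene had 2 probes, the brighter stood for it.

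The cells came from C57BL/6 mice labelled as male that were wild type (wt), lacked the protein kinase MK2 (MK2-/-) or lacked both MK2 and its relative MK3 (MK2/3-/-). MK2 and MK3 are kinases activated by p38 MAPK, a stress-activated kinase, and the study asked how each of them shapes the macrophage response to LPS, the lipopolysaccharide of the cell wall of Gram-negative bacteria. Bone marrow was cultured with 10 ng/ml of the growth factor M-CSF for 9 days and then kept for 360 min in medium alone or with 100 ng/ml LPS. The groups were wt in medium (4 arrays) and with LPS (3), MK2-/- in medium (4) and with LPS (4), and MK2/3-/- in medium (3) and with LPS (4), from mice of 10 to 14 weeks. The labels number the replicates and give the age of the mice, which differs between some replicates of a group. For each time point the paper's methods state 4 experiments that were independent of each other. The animal behind each array is not named, so the p-values measure the spread between these arrays.

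Matrix metalloproteinases are zinc-dependent enzymes that are made as inactive precursors and, once activated, cut collagens, elastin and other proteins of the extracellular matrix as well as cytokines and receptors at the cell surface. The tissue inhibitors of metalloproteinases (TIMPs) bind their active site. Macrophages are a known source of several of these enzymes in inflamed tissue, and fibroblasts and other stromal cells are known to make Mmp2 and the TIMPs in large amounts.

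The deleted genes followed the labels. On the log2 scale Mapkapk2, which encodes MK2, was lower than in wt by -3.02 in MK2-/- and -3.45 in MK2/3-/- BMDM in medium (adjusted p = 3.4e-05 and 1.3e-05), and Mapkapk3, which encodes MK3, was lower in MK2/3-/- BMDM by -1.97 (adjusted p = 0.000337). All arrays of a genotype lay on 1 slide, so in any direct comparison of genotypes the slide and the genotype cannot be told apart. Probes for 6 of the 7 macrophage markers were well above background on every array. Their summed signal was 18.9 to 19.4 (log2) on the medium and 17.9 to 18.4 on the LPS arrays. With LPS, 3 of the 6 were called lower in wt, 4 in MK2-/- and 3 in MK2/3-/- BMDM, and 1 was called higher in each. The summed osteoclast markers ranged from 12.6 to 14.7, and the dendritic cell markers from 11.0 to 13.6 in medium and from 12.8 to 15.2 with LPS. The lymphoid markers ranged from 9.83 to 12.3, with Ncr1 and Cd3g on no array well above background in the wt groups. Over 1002 genes that rose at least 4-fold with LPS in wt BMDM, the medium array of wt replicate 4 lay a median of 0.39 (log2) above the other wt medium arrays, while the other medium arrays lay between -0.19 and 0.21. Replicate 3 of MK2-/- in medium and with LPS had a mean log2 signal of 2.34 and 2.06 over 4 Y-linked genes, against 6.86 or more on the other arrays, although the labels say male. Results that changed without these arrays are given with both values.

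LPS changed 4 of the 10 genes in wt BMDM (3 up, 1 down), 6 in MK2-/- BMDM (4 up, 2 down) and 5 in MK2/3-/- BMDM (3 up, 2 down) at an adjusted p below 0.05. Mmp13 and Mmp14 rose and Timp2 fell in all 3 genotypes. Mmp9 rose in wt and MK2-/- BMDM, Timp1 rose in both knockouts, Mmp19 fell in MK2-/- and Mmp8 in MK2/3-/- BMDM. Over all genes tested, 41.4% were called in wt, 43.9% in MK2-/- and 47.7% in MK2/3-/- BMDM. Calls upward made up 17.9%, 16.7% and 19.9% of genes and calls downward 23.5%, 27.2% and 27.8%. The median absolute log2 change of the 10 genes was 1.43, 1.76 and 1.31, against 0.66, 0.63 and 0.74 over all genes. These are RNA levels of whole cultures, in which fewer cells of a type and less RNA per cell cannot be told apart. Scaling each array to its 75th percentile in place of quantile normalisation moved the median change of all genes by 0.33, 0.29 and 0.28 in wt, MK2-/- and MK2/3-/- BMDM. It raised the share of calls that were higher after LPS from 43.2% to 59.6%, from 38.0% to 52.1% and from 41.7% to 54.0%.

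**Figure D1:**
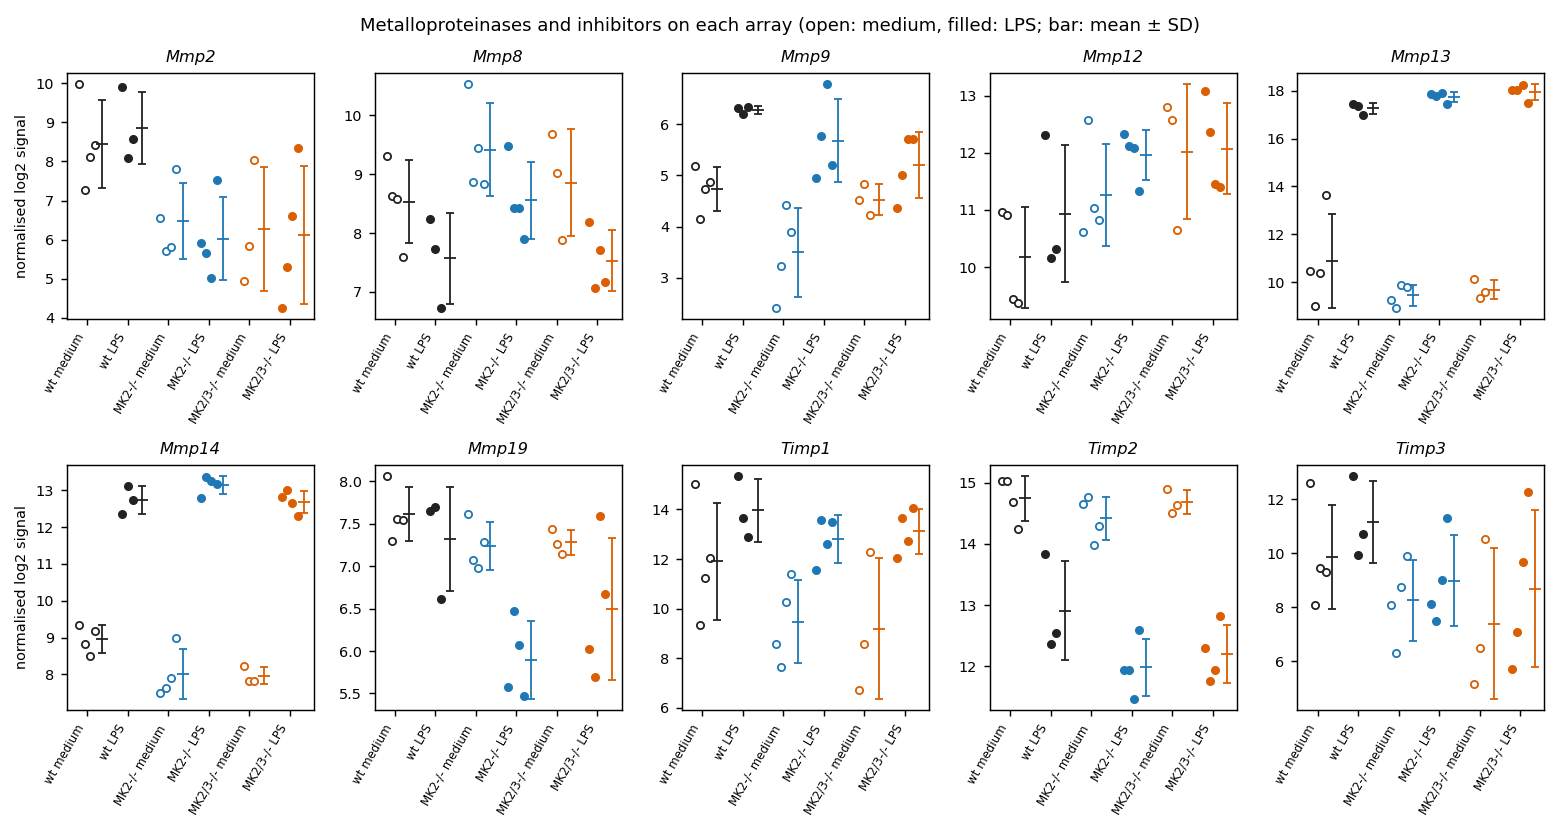
Normalised log2 signal (vertical axis) of the 10 genes on each of the 22 arrays, in the 6 groups (horizontal axis). Open points are medium and filled points LPS, and the bars give the mean ± SD. The LPS arrays of Mmp13 (16.99 to 18.23) and Mmp14 (12.29 to 13.37) lie above all their medium arrays, those of Timp2 (11.46 to 13.83) lie below, and Timp1 and Timp3 spread widely within groups.

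Mmp13 encodes a collagenase that cuts fibrillar collagens. In wt BMDM its normalised log2 signal was 10.48, 9.02, 10.39 and 13.65 on the 4 medium arrays and 17.44, 17.35 and 16.99 on the 3 LPS arrays. In MK2-/- BMDM it was 9.23, 8.93, 9.87 and 9.78 in medium and 17.85, 17.78, 17.91 and 17.42 with LPS, and in MK2/3-/- BMDM 10.11, 9.35 and 9.59 in medium and 18.04, 18.01, 18.23 and 17.48 with LPS. The LPS arrays lay far above the medium arrays in every genotype, and the only medium array above 10.48 was wt replicate 4 (13.65). On that array LPS-induced genes lay a median of 0.39 (log2) above the other wt medium arrays. Whether the high Mmp13 value there belongs to this shift was not tested. The log2 rise was 6.37 ± 0.65 (SE) in wt, 8.29 ± 0.60 in MK2-/- and 8.25 ± 0.65 in MK2/3-/- BMDM, or 82.9-, 312- and 305-fold (adjusted p = 2.5e-07, 1.6e-09 and 5.3e-09). Without wt medium replicate 4 the rise in wt BMDM was 7.29 ± 0.35. The rise in MK2-/- minus that in wt BMDM was 1.91 ± 0.88 (95% interval 0.066 to 3.76, adjusted p = 0.648) and, without that array, 0.99 ± 0.46. No spot of any of the 10 genes was marked as saturated.

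Mmp14 encodes a membrane-bound metalloproteinase that activates the Mmp2 precursor at the cell surface. Its log2 signal in medium was 9.33, 8.82, 8.51 and 9.18 in wt, 7.48, 7.63, 7.91 and 8.98 in MK2-/- and 8.23, 7.83 and 7.83 in MK2/3-/- BMDM. With LPS it was 12.36, 13.12 and 12.73 in wt, 12.80, 13.37, 13.26 and 13.18 in MK2-/- and 12.81, 13.01, 12.65 and 12.29 in MK2/3-/- BMDM. The medium arrays of the knockouts lay below those of wt apart from MK2-/- replicate 4, and with LPS the genotypes overlapped. Mmp14 rose by 3.78 ± 0.31 in wt, 5.15 ± 0.28 in MK2-/- and 4.73 ± 0.31 in MK2/3-/- BMDM on the log2 scale (13.7-, 35.5- and 26.5-fold; adjusted p = 1.5e-08, 6.9e-11 and 5.5e-10).

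The bases before the start site of Mmp13, Mmp14 and Timp2, the 3 genes called in every genotype, are shown because they let a reader see what these genes share upstream. Windows of 250 bases upstream of the start were held for 7 of the 10 genes (8 windows, 2 for Mmp12), from RefSeq on build GRCm38.p6. They lie for Mmp13 at chr9:7272264-7272513 (plus strand), for Mmp14 at chr14:54431348-54431597 (plus strand) and for Timp2 at chr11:118355412-118355661 (minus strand). They were searched on both strands for the AP-1 motif TGANTCA, the NF-kB consensus motif and the TATA box TATAAA. Capitals mark the AP-1 motif.
Mmp13: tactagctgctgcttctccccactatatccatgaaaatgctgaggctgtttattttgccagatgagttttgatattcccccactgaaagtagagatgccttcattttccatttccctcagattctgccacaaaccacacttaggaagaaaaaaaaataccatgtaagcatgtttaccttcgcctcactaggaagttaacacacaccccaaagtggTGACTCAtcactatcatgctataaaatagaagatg
Mmp14: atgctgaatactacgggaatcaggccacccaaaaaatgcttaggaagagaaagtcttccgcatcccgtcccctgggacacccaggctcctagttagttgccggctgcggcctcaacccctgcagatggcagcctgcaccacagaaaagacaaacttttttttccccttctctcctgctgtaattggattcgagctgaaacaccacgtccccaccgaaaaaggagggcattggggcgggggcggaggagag
Timp2: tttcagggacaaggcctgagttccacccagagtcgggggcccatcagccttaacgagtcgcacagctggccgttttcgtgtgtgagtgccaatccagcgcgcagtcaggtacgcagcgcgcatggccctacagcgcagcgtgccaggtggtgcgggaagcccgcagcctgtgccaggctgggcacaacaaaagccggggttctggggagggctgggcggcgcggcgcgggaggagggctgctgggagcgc
In Mmp13 the match TGACTCA lay 35 to 29 bases before the start, followed by a TATA box at 16 to 11 bases, and neither Mmp14 nor Timp2 held any of the 3 motifs in this window. Of the other windows, 1 of Mmp12 held an AP-1 match (TGAGTCA, 44 to 38 bases before the start) and the other an NF-kB match, while those of Mmp8, Timp1 and Timp3 held none. Over 32851 mouse windows of the same length, 6.75% held the AP-1 motif, 7.25% the NF-kB motif and 12.4% the TATA box. A match is a run of letters and not a measured binding site.

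Mmp9 encodes gelatinase B, which degrades denatured collagen and type IV collagen. Its probe is printed 10 times on each array, and its signal was low: in medium it was well above background on 2 of 4 wt, 1 of 4 MK2-/- and 3 of 3 MK2/3-/- arrays. The log2 signal in wt BMDM was 5.18, 4.15, 4.73 and 4.87 in medium and 6.32, 6.19 and 6.34 with LPS. In MK2-/- BMDM it was 2.42, 3.24, 4.43 and 3.91 in medium and 4.96, 5.77, 6.78 and 5.20 with LPS. Medium and LPS arrays did not overlap in these genotypes, and Mmp9 rose by 1.55 ± 0.45 in wt and by 2.18 ± 0.42 in MK2-/- BMDM (adjusted p = 0.00988 and 0.000262). In MK2/3-/- BMDM the signal was 4.52, 4.82 and 4.22 in medium and 4.37, 5.01, 5.70 and 5.71 with LPS, and the difference of 0.68 ± 0.45 was not called (adjusted p = 0.24). The spots of 1 array differed from each other by an SD of 0.44 (median over arrays, range 0.078 to 0.75, log2).

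Of the other proteases, Mmp8 and Mmp19 were each called with LPS in a single genotype, and Mmp12 and Mmp2 in none. Mmp8, the collagenase best known from neutrophils, was 9.68, 9.02 and 7.88 in medium and 8.19, 7.07, 7.71 and 7.16 with LPS in MK2/3-/- BMDM, so that both groups overlapped. It fell by 1.32 ± 0.52 (adjusted p = 0.044). The differences of -0.96 ± 0.52 in wt and -0.86 ± 0.48 in MK2-/- BMDM were not called (adjusted p = 0.15 and 0.16). These tests are unpaired. When medium and LPS arrays were matched by the letter in their names, Mmp8 was lower with LPS in every pair of each genotype. The share of all genes that moved 1 way in every such pair was not counted. In wt BMDM these pairs were 9.32 and 8.25, 8.58 and 7.74, and 7.60 and 6.73. In MK2-/- BMDM they were 10.53 and 9.47, 8.87 and 8.42, 9.45 and 8.43, and 8.84 and 7.90. No paired difference was tested for Mmp8. The call in MK2/3-/- BMDM was lost without wt medium replicate 2 or 3, MK2-/- LPS replicate 2, MK2-/- medium replicate 3, MK2/3-/- LPS replicate 2, 3 or 4, or MK2/3-/- medium replicate 1 or 2 (adjusted p = 0.051 to 0.21), without both arrays of low Y-linked signal (-1.32, adjusted p = 0.058) and with 75th percentile scaling (-1.09, adjusted p = 0.11). Probes for 7 of 8 markers of neutrophils and their precursors gave a summed log2 signal of 12.1 to 12.5 in MK2/3-/- BMDM in medium and 11.8 to 12.4 with LPS, against 11.2 to 11.7 in the wt groups and 11.0 to 12.7 in the MK2-/- groups, and Retnlg was on no array well above background in all groups but MK2/3-/- in medium. Their part in the result was not tested.

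Mmp19, a metalloproteinase of basement membranes, had a log2 signal of 7.62, 7.07, 6.98 and 7.28 in MK2-/- BMDM in medium and 5.58, 6.47, 6.07 and 5.47 with LPS. These arrays did not overlap, and Mmp19 fell by 1.34 ± 0.35 (adjusted p = 0.00338). The differences of -0.29 ± 0.37 in wt and -0.79 ± 0.37 in MK2/3-/- BMDM were not called (adjusted p = 0.57 and 0.092), and the latter was called at -1.15 (adjusted p = 0.0072) without MK2/3-/- LPS replicate 3.

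Mmp12, the macrophage elastase, had a mean log2 signal between 10.2 in wt medium and 12.1 in MK2/3-/- LPS. Its LPS differences of 0.76 ± 0.65 in wt, 0.70 ± 0.60 in MK2-/- and 0.06 ± 0.65 in MK2/3-/- BMDM were not called (adjusted p = 0.37, 0.38 and 0.95). The 95% intervals, -0.59 to 2.11, -0.55 to 1.95 and -1.29 to 1.41, leave room for changes of more than 2-fold in each genotype. The second probe of Mmp12 gave differences of -0.23, -0.10 and -1.02, none called, so the 2 probes differed in sign.

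Among the inhibitors, Timp2 stood out by its small spread. Timp2 blocks metalloproteinases and also takes part, with Mmp14, in the activation of the Mmp2 precursor. Its log2 signal in medium was 15.03, 15.03, 14.69 and 14.25 in wt, 14.65, 14.76, 13.99 and 14.29 in MK2-/- and 14.91, 14.51 and 14.63 in MK2/3-/- BMDM. With LPS it was 13.83, 12.36 and 12.54 in wt, 11.93, 11.94, 11.46 and 12.59 in MK2-/- and 12.30, 11.75, 11.94 and 12.83 in MK2/3-/- BMDM. Every LPS array lay below every medium array, whatever the genotype. Timp2 fell, by log2 differences of -1.84 ± 0.35, -2.44 ± 0.32 and -2.48 ± 0.35 in wt, MK2-/- and MK2/3-/- BMDM (adjusted p = 0.000286, 3.5e-06 and 7.3e-06). With 75th percentile scaling the falls were -1.19, -1.92 and -1.88 and were still called. The second Timp2 probe gave -0.69, -0.69 and -0.77, the same sign and over 1 log2 unit smaller, and was not called (adjusted p = 0.24, 0.20 and 0.17), so the size of the fall depends on the probe.

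**Figure D2:**
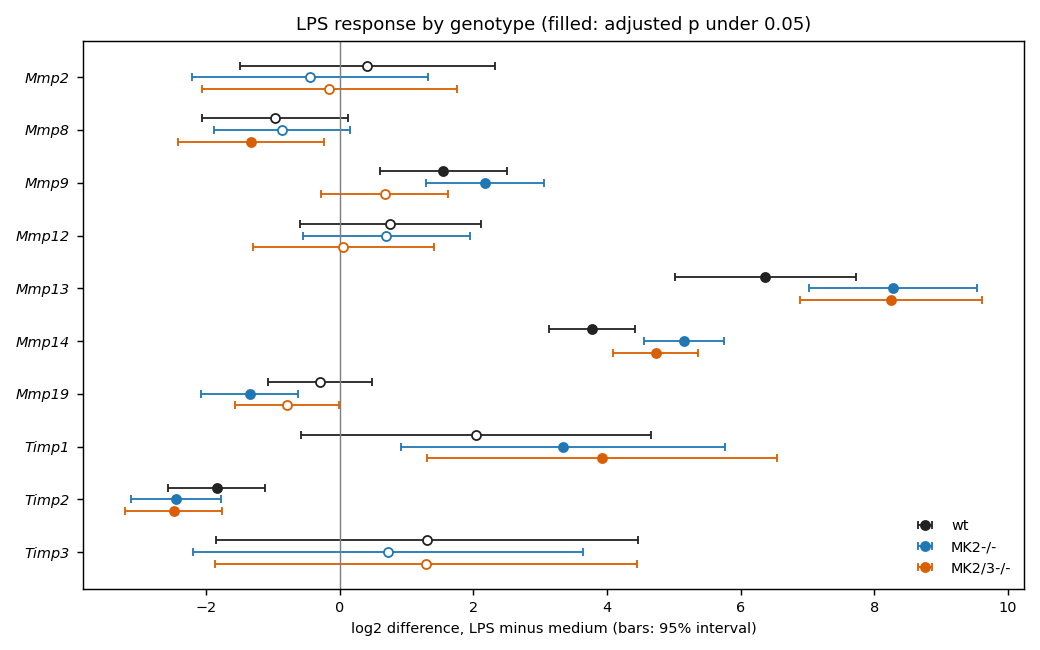
Log2 difference between LPS and medium (horizontal axis) of the 10 genes (vertical axis) in wt, MK2-/- and MK2/3-/- BMDM, with 95% intervals from limma. Filled points are called at an adjusted p below 0.05. Mmp13 (6.37 to 8.29) and Mmp14 (3.78 to 5.15) lie far to the right and Timp2 (-2.48 to -1.84) to the left in all genotypes, and Timp3 and Mmp2 have wide intervals across 0.

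Timp1, an inhibitor of most secreted metalloproteinases, varied strongly within groups. In wt BMDM its log2 signal was 15.02, 9.36, 11.25 and 12.06 in medium and 15.36, 13.64 and 12.90 with LPS. In MK2-/- BMDM it was 8.57, 7.66, 10.26 and 11.38 in medium and 11.55, 13.59, 12.60 and 13.51 with LPS, and in MK2/3-/- BMDM 6.71, 8.58 and 12.29 in medium and 12.04, 13.64, 12.75 and 14.06 with LPS. The LPS arrays lay above the medium arrays in MK2-/- BMDM, overlapped with 1 medium array in MK2/3-/- BMDM and overlapped broadly in wt BMDM. Between medium and LPS arrays with the same letter, Timp1 was higher with LPS in every pair of each genotype. In wt BMDM these pairs were 15.02 and 15.36, 11.25 and 13.64, and 12.06 and 12.90. The share of all genes that moved 1 way in every such pair was not counted. The tests that follow do not use this pairing, and the block fit by letter left the Timp1 calls with LPS as they were. Timp1 rose by 3.34 ± 1.16 in MK2-/- and by 3.93 ± 1.25 in MK2/3-/- BMDM (adjusted p = 0.024 and 0.014), and the difference of 2.05 ± 1.25 in wt BMDM was not called (95% interval -0.57 to 4.67, adjusted p = 0.21). The call in MK2-/- BMDM was lost without MK2-/- LPS replicate 2 or 4 or MK2-/- medium replicate 1 or 2 (adjusted p = 0.061 to 0.081), and that in MK2/3-/- BMDM without MK2/3-/- medium replicate 1 (2.69, adjusted p = 0.11) or 2 (3.62, adjusted p = 0.053). In wt BMDM the difference was 3.08 (adjusted p = 0.048) without medium replicate 1, the array with the highest Timp1 signal in medium.

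Timp3, an inhibitor that binds to the matrix and also blocks some ADAM proteases, and Mmp2, or gelatinase A, spread as widely and were not called in any LPS comparison. Timp3 ranged from 8.07 to 12.61 in wt medium, 9.94 to 12.87 in wt LPS, 6.31 to 9.88 in MK2-/- medium, 7.49 to 11.32 in MK2-/- LPS, 5.15 to 10.52 in MK2/3-/- medium and 5.70 to 12.28 in MK2/3-/- LPS. Its LPS differences were 1.31 ± 1.51, 0.72 ± 1.39 and 1.29 ± 1.51 in wt, MK2-/- and MK2/3-/- BMDM (adjusted p = 0.526, 0.725 and 0.52). For Mmp2 they were 0.42 ± 0.91, -0.44 ± 0.84 and -0.15 ± 0.91 (adjusted p = 0.76, 0.72 and 0.91). With such spread, changes of several fold in either direction lie inside the unpaired 95% intervals of Timp3, which run from -1.84 to 4.47, -2.20 to 3.64 and -1.86 to 4.45. In every pair of medium and LPS arrays with the same letter, Timp3 was higher with LPS. In wt BMDM these pairs were 12.61 and 12.87, 9.45 and 9.94, and 9.29 and 10.70. Mmp2 went both ways: in wt BMDM its pairs were 9.97 and 9.90, 8.10 and 8.10, and 8.42 and 8.58. The share of all genes that moved 1 way in every pair was not counted. No difference within pairs was tested, and with the block fit by letter Timp3 was still not called with LPS in any genotype.

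Within groups, Timp1, Timp3 and Mmp2 were highest on arrays with high signals of fibroblast or stromal cell markers. All 8 such markers had a probe. Their summed log2 signal ranged from 11.7 to 16.7 in wt medium, 13.6 to 15.9 in wt LPS, 10.6 to 14.7 in MK2-/- medium, 11.7 to 14.3 in MK2-/- LPS, 9.58 to 15.6 in MK2/3-/- medium and 10.9 to 14.9 in MK2/3-/- LPS. The array with the highest sum within a group also had the highest Mmp2 and Timp3 in 6 of 6 groups and the highest Timp1 in 5 of 6, and the array with the lowest sum had the lowest Timp3 in 6, Mmp2 in 5 and Timp1 in 4 of 6. The collagen genes Col1a1 and Col1a2 were well above background on all 22 arrays, while Pdgfra was on none in the 4 knockout groups. With LPS, 1 of the 7 tested stromal markers was called in wt (Lum), 3 in MK2-/- (Lum, Pdgfrb and Dcn) and 2 in MK2/3-/- BMDM (Lum and Pdgfrb), all higher. The part of these cells in the Timp1, Timp3 and Mmp2 results was not tested.

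**Figure D3:**
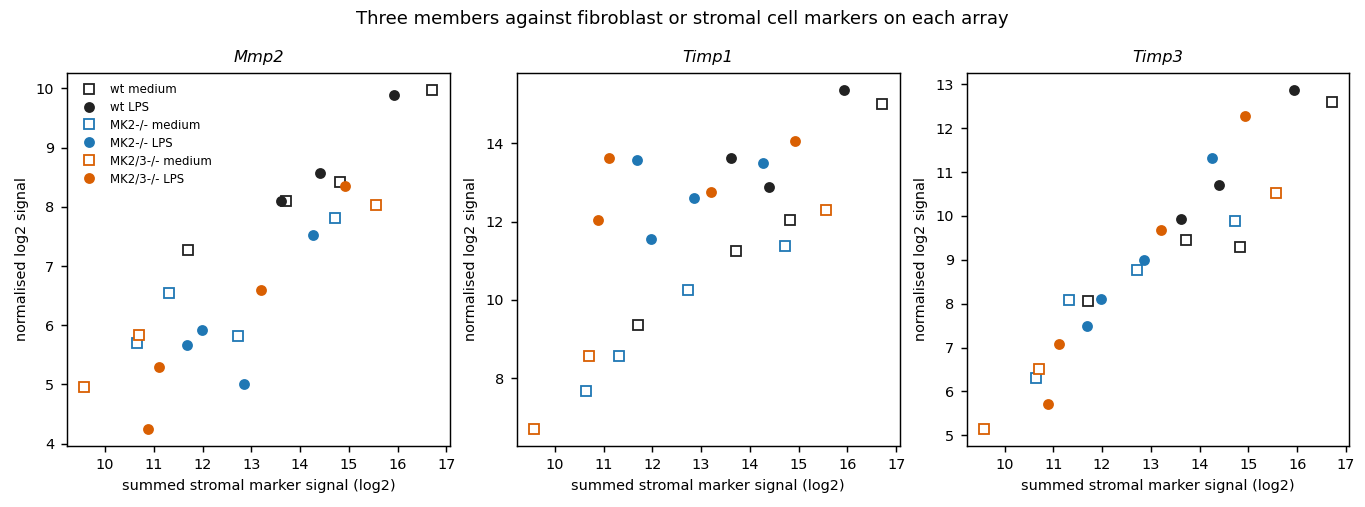
Normalised log2 signal of Mmp2, Timp1 and Timp3 (vertical axes) against the summed log2 signal of 8 fibroblast or stromal cell markers (horizontal axis) on each of the 22 arrays, by group. Squares are medium and circles LPS. The array with the lowest sum (9.58) has the lowest Timp1 and Timp3, and the array with the highest sum (16.7) has the highest Mmp2. Timp1 ran from 11.55 to 15.36 on the LPS arrays and from 6.71 to 15.02 on the medium arrays, so the ranges overlap.

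In direct comparisons of the genotypes, Mmp19, Mmp2 and Mmp14 were each called in 1 comparison. With LPS, 1 of the 10 genes was called in MK2-/- against wt (11.1% of all genes were called), 1 in MK2/3-/- against wt (23.1%) and 0 in MK2/3-/- against MK2-/- (13.1%, with 1 of 10 at an unadjusted p below 0.05). In medium, 1 was called in MK2-/- against wt (8.09%), 0 in MK2/3-/- against wt (1.65%, with 4 at an unadjusted p below 0.05) and 0 in MK2/3-/- against MK2-/- (2.74%, with 1). At an unadjusted p below 0.05 limma gave 3 and 3 of the 10 genes in MK2-/- and MK2/3-/- against wt under LPS and 5 in MK2-/- against wt in medium. The median absolute log2 difference of the 10 genes from wt was 1.01 and 0.84 under LPS, against 0.43 and 0.51 over all genes, and 1.16 and 1.097 in medium, against 0.38 and 0.32. The methods' t-test with Benjamini-Hochberg adjustment called none of the 10 genes in these 6 comparisons. With 75th percentile scaling the median of all genes shifted by 0.19 (LPS) and 0.11 (medium) in MK2/3-/- against wt. The share of all calls that were higher went from 35.9% to 63.1%, 41.6% to 58.8% and 60.9% to 72.6% under LPS, and from 62.7% to 84.0%, 71.5% to 90.4% and 73.6% to 90.1% in medium, in the order above.

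Mmp19 was the gene lower in MK2-/- than in wt BMDM under LPS. Its signal was 7.65, 7.70 and 6.62 on the wt and 5.58, 6.47, 6.07 and 5.47 on the MK2-/- LPS arrays, which did not overlap, and the difference was -1.43 ± 0.37 (adjusted p = 0.0215). In MK2/3-/- BMDM Mmp19 was 6.03, 5.69, 7.59 and 6.67 with LPS, between and overlapping with wt, and differed from wt by -0.83 ± 0.37 (adjusted p = 0.12). The MK2-/- call was lost without wt LPS replicate 1 or 2 or MK2-/- LPS replicate 1 or 4 (adjusted p = 0.053 to 0.084), and with 75th percentile scaling (-0.95, adjusted p = 0.082). Without MK2/3-/- LPS replicate 3 or wt LPS replicate 3, Mmp19 was called in MK2/3-/- BMDM too (-1.19 and -1.18, adjusted p = 0.015 and 0.048), whereas with 75th percentile scaling its difference there was -0.24 (adjusted p = 0.65).

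Mmp2 was the gene called lower in MK2/3-/- BMDM under LPS. Its log2 signal with LPS was 9.90, 8.10 and 8.58 in wt, 5.91, 5.67, 5.01 and 7.52 in MK2-/- and 4.25, 5.29, 6.60 and 8.34 in MK2/3-/- BMDM. All MK2-/- arrays lay below the wt arrays and 1 MK2/3-/- array reached into them. The difference from wt was called in the MK2/3-/- cells (-2.74 ± 0.91, adjusted p = 0.037) and lay just past the threshold in MK2-/- BMDM (-2.83 ± 0.91, adjusted p = 0.052). In medium the differences were -2.17 ± 0.91 and -1.97 ± 0.84 (adjusted p = 0.23 and 0.15), with arrays from 7.28 to 9.97 in wt, 5.70 to 7.81 in MK2-/- and 4.95 to 8.04 in MK2/3-/- BMDM. The MK2/3-/- call was lost without wt LPS replicate 1 or 3 or MK2/3-/- LPS replicate 1 or 2 (adjusted p = 0.070 to 0.16). In MK2-/- BMDM Mmp2 was called without wt medium replicate 1, MK2-/- LPS replicate 4, MK2/3-/- LPS replicate 1 or 4 or MK2/3-/- medium replicate 3 (adjusted p = 0.031 to 0.048) and with 75th percentile scaling (-2.45, adjusted p = 0.044), and it was -2.49 (adjusted p = 0.11) without both arrays of low Y-linked signal. The median difference of the 7 stromal markers from wt with LPS was -1.20 in MK2-/- and -0.72 in MK2/3-/- BMDM, none called, and their part in the Mmp2 difference was not tested.

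Mmp14 was lower in MK2-/- than in wt BMDM in medium by -0.96 ± 0.28 (adjusted p = 0.045). In MK2/3-/- BMDM, whose 3 arrays lay below all wt arrays, the difference was -0.996 ± 0.31 (adjusted p = 0.0999). The MK2-/- call was lost without any of 11 arrays (adjusted p = 0.052 to 0.14), among them wt medium replicates 1, 2 and 4 and MK2-/- medium replicates 1, 2 and 3, and also without wt LPS replicate 3, MK2-/- LPS replicates 2 and 4 and MK2/3-/- medium replicates 2 and 3. The MK2/3-/- difference was called without MK2-/- medium replicate 4 (adjusted p = 0.048) and with 75th percentile scaling (-0.97, adjusted p = 0.047). Without both arrays of low Y-linked signal the MK2-/- difference was -0.93 (adjusted p = 0.088), Mmp9 was called lower in MK2-/- BMDM in medium (-1.55, adjusted p = 0.022, against -1.24 and 0.075 with all arrays) and Mmp9 was called lower in MK2/3-/- BMDM under LPS (-1.08, adjusted p = 0.041, against 0.092). With 75th percentile scaling these Mmp9 differences were -0.38 (adjusted p = 0.55) and -0.29 (adjusted p = 0.63).

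Other differences reached only an unadjusted p below 0.05 in limma. In medium, Mmp13 was -1.43 (adjusted p = 0.14) and Timp1 -2.45 (adjusted p = 0.19) in MK2-/- against wt BMDM. The Mmp13 difference was -2.05 and called (adjusted p = 0.033) without wt medium replicate 2 and -0.51 without wt medium replicate 4. In MK2/3-/- against wt in medium, Mmp12 was 1.85 (adjusted p = 0.15) and Timp1 -2.72 (adjusted p = 0.28). The second Mmp12 probe gave 0.68 in that comparison (adjusted p = 0.52). Under LPS, Timp2 was -0.93 (adjusted p = 0.085) in MK2-/- against wt BMDM and was called with 75th percentile scaling (-1.29, adjusted p = 0.022), and Mmp8 was -1.02 in MK2/3-/- against MK2-/- BMDM (adjusted p = 0.18).

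**Figure D4:**
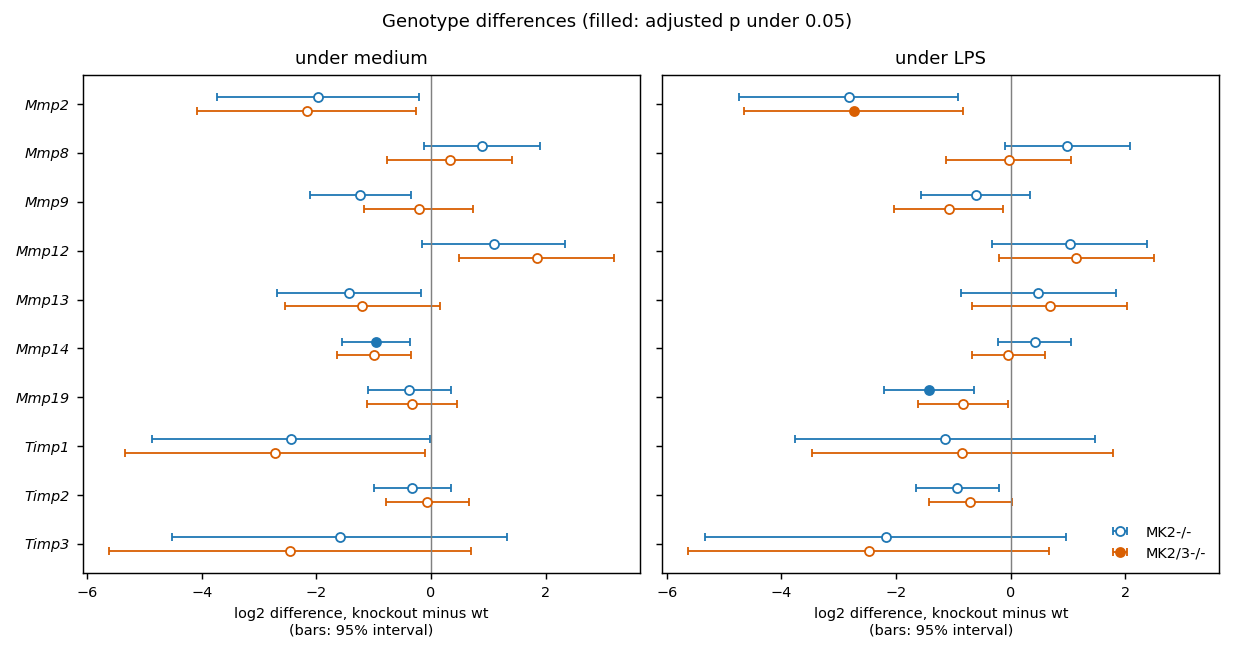
Log2 difference between knockout and wt BMDM (horizontal axis) of the 10 genes (vertical axis) in medium (left) and with LPS (right), with 95% intervals from limma. Filled points are called at an adjusted p below 0.05: Mmp14 in MK2-/- in medium (-0.96), and Mmp19 in MK2-/- (-1.43) and Mmp2 in MK2/3-/- (-2.74) with LPS.

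The LPS response was compared between genotypes as a difference of differences. This value, in which an additive effect of the slide cancels, was called for none of the 10 genes. Over all genes it was called for 0% (MK2-/- minus wt, with 1703 genes at an unadjusted p below 0.05), 0.563% (MK2/3-/- minus wt) and 0.0536% (MK2/3-/- minus MK2-/-). At an unadjusted p below 0.05 limma gave 2, 1 and 1 of the 10 genes. For Mmp14 the rise minus that in wt BMDM was 1.38 ± 0.42 in MK2-/- (95% interval 0.502 to 2.25, adjusted p = 0.373) and 0.95 ± 0.43 in MK2/3-/- BMDM (95% interval 0.046 to 1.86, adjusted p = 0.414). For Mmp9 the rise in MK2/3-/- minus that in MK2-/- BMDM was -1.50 ± 0.62 (95% interval -2.80 to -0.20, adjusted p = 0.50).

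Other metalloproteinases moved in the same comparisons. Of 16 further family members, 15 were on the array and 10 were tested. In wt BMDM 5 of the 10 were called, all higher (Mmp25, Mmp10, Mmp3, Mmp28 and Mmp17), in MK2-/- BMDM 6 and in MK2/3-/- BMDM 4, again all higher, with median log2 changes of 0.78, 0.80 and 0.78 against -0.05, -0.03 and 0.02 over all genes. Mmp25, a membrane-anchored protease known from leukocytes, rose by 5.91 in wt (60.1-fold), at least 103-fold in MK2-/- BMDM, where no medium array was well above background, and by 7.50 on the log2 scale in MK2/3-/- BMDM. Mmp10, or stromelysin-2, rose by 3.31, 2.41 and 2.77 (adjusted p = 3.8e-05, 0.000314 and 0.000558). Mmp3, or stromelysin-1, was well above background on no medium array and on 1 of 3 LPS arrays in wt and 3 of 4 in MK2-/- BMDM, and rose at least 2.06-fold and 3.29-fold (adjusted p = 0.0082 and 0.0041). Under LPS, Mmp24 (-1.86, adjusted p = 0.0032) and Mmp28 (-1.14, adjusted p = 0.021) were lower in MK2-/- BMDM than in the wt, and Mmp28 was not called with 75th percentile scaling (-0.67). In MK2/3-/- BMDM with LPS, Mmp24 differed from wt by -0.0082 (adjusted p = 0.99) and was higher than in MK2-/- BMDM (1.85, adjusted p = 0.00052), in which 2 of 4 arrays were well above background. Mmp24 was also called in medium, at -1.29 in MK2-/- against wt (adjusted p = 0.017) and 1.44 in MK2/3-/- against MK2-/- BMDM (adjusted p = 0.022). Neither was called with 75th percentile scaling (-0.78 and 1.61). No difference of LPS responses was called among these further family members. Mmp24, Mmp28, Mmp17, Plau and the genes given below for genotype differences were named after their values were seen.

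Proteins that activate metalloproteinases or clear matrix held 8 called genes of 12 in wt (5 higher, 3 lower), 9 in MK2-/- (5 and 4) and 8 in MK2/3-/- BMDM (5 and 3), with median changes of 0.02, 0.11 and -0.37. Plat, or tissue plasminogen activator, rose by 5.35 in wt, at least 479.9-fold in MK2-/- and by 9.29 in MK2/3-/- BMDM (adjusted p = 1.3e-05, 3.0e-09 and 8.0e-09). The urokinase receptor Plaur rose by 2.58, 3.38 and 3.33, whereas urokinase itself, Plau, fell (-2.15, -4.17 and -3.49). Of the genes called lower, the cathepsin Ctss (-0.52, -0.52 and -0.81) turned sign with 75th percentile scaling (0.29, 0.22 and 0.24, not called). In medium Plat was well above background on 3 of 4 wt, 0 of 4 MK2-/- and 1 of 3 MK2/3-/- arrays. It was at least 4.40-fold lower in the MK2-/- cells against wt (adjusted p = 0.042), not called with 75th percentile scaling, and its difference between MK2/3-/- and wt cells was -3.05 (adjusted p = 0.047). With LPS Plau was lower in MK2-/- BMDM (-2.79 against wt, adjusted p = 0.0071, with 2 of 4 arrays well above background), and the collagen-degrading cathepsin Ctsk in MK2/3-/- BMDM (-2.26 against wt, adjusted p = 0.038), which was not called with 75th percentile scaling (-1.78).

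Of 11 tested ADAM and ADAMTS proteases, 4 were called in wt (1 higher, 3 lower), 5 in MK2-/- and 5 in MK2/3-/- BMDM (2 higher, 3 lower in each), with median changes of 0.25, -0.19 and -0.09. Adamts4, an aggrecanase, rose by 5.59, 7.39 and 7.89, and Adam10, which sheds membrane proteins, fell (-1.90, -2.20 and -2.51). Adam15 was called lower (-0.98, -1.42 and -1.34), but with 75th percentile scaling its differences were -0.17, -0.67 and -0.41 and not called, and Adam8, called lower in each genotype, was not called under that scaling either. Adam17, the sheddase of TNF, was higher under LPS in MK2/3-/- than in wt BMDM (0.90, adjusted p = 0.023).

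Of 5 other inhibitors, Cst3, a secreted inhibitor of cysteine proteases, was called in each genotype. Its differences were -0.92, -0.84 and -0.93, but with 75th percentile scaling the differences were -0.09, -0.12 and 0.05 and not called, so its direction was not stable to the scaling. The median changes of the 5 genes were 0.06, 0.27 and 0.12. Timp4 was not called in any LPS comparison (0.06, 0.28 and -0.36) and was lower in MK2/3-/- than in MK2-/- BMDM under LPS (-1.20, adjusted p = 0.021; -0.99 and not called with 75th percentile scaling).

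Of 13 matrix proteins, 2 were called in each genotype, 1 higher and 1 lower, with median changes of 0.56, 0.11 and 0.33. Elastin (Eln) rose by 1.05 in wt and by 0.68 in MK2-/- BMDM (adjusted p = 0.0053 and 0.041). It was not called in MK2/3-/- BMDM, where the 1 gene called higher was another and was not called with 75th percentile scaling. Tgfbi, a collagen-binding matrix protein, fell by 1.00 in wt (adjusted p = 0.010), and the difference was -0.16 and not called with 75th percentile scaling. With LPS, Tgfbi was also lower in MK2/3-/- than in wt BMDM (-1.16, adjusted p = 0.0088).

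The genes whose signal was most like that of each member were found by Pearson correlation over the 22 arrays, which share the LPS effect and the 3 slides, so r is a description. Mmp13 was most like Il1rn, Cd40 and Hdc (r = 0.993, 0.993 and 0.992), Mmp14 most like Ext1, Ccnd2 and Rcl1 (0.990, 0.987 and 0.987), and Timp2 most like Ier5l, Trim47 and Kank2 (0.980, 0.973 and 0.973). For the genes that followed the stromal markers these were Fstl1, Adamts2 and Cyp1b1 for Timp3 (0.975, 0.969 and 0.967), Bok, Pcolce2 and Bicc1 for Mmp2 (0.967, 0.965 and 0.956) and Cnn3, Gja1 and Htra1 for Timp1 (0.936, 0.932 and 0.931). Likeness was lower for Mmp9 (Prep, Twf1 and Atp6v1h; 0.920, 0.878 and 0.875), Mmp8 (Cd24a, Emb and Dap; 0.880, 0.861 and 0.848), Mmp19 (Dnajc24, Vwa8 and Trappc11; 0.873, 0.857 and 0.856) and Mmp12 (Npy, Wdfy1 and Scgb1b3; 0.819, 0.771 and 0.770).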

How the data were processed

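RNA of 22 samples was labelled with Cy3 and hybridised by the authors to 1-colour Agilent mouse arrays. The deposited scanner output gives a processed intensity for each spot, corrected for background by Feature Extraction 11.0.1.1 and not normalised between arrays. The deposited log2 table, quantile normalised and centred by the authors, followed the values computed here with r of 0.997 to 0.999 over probes, and its column medians lay between -0.07 and 0.08.

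Log2 processed intensity of 59305 non-control spots was quantile normalised over the 22 arrays, marked spots (115 to 2927 per array) were then set to missing and spots of a probe were averaged. Probes had to be well above background on 3 arrays or more, and the brightest stood for its gene. Accessions were named through RefSeq genes of GRCm38.p6 (27509 of 29150 RefSeq probes). Linear models with a mean for each of 6 groups were fitted to all arrays with limma 3.58.1 in R 4.3.3. A call is a two-sided p below 0.05 after Benjamini-Hochberg adjustment over 22383 genes. An "at least" fold sets the brighter mean against the lowest signal well above background, or the probe's own if higher, on the arrays of the dimmer group. The number of arrays limits the precision, and no depth applies. The fit was tested on simulated data. All members, the deleted genes, from each further list the 3 called genes with the largest LPS change in wt and any called in a difference of responses, and the 3 genes most correlated with each member were named. A gene that this rule selects is not reported here. Members and lists were chosen with earlier results of these data known. For the normexp alternative the median spot signal was used, since the mean is not in the files used here. The alternatives were 75th percentile scaling, normexp, the deposited table, other filters, other probes, only the groups compared, array weights, a 2-fold minimum, the methods' t-test, a replicate block and each array left out. For single genes they were run on all LPS responses and on other differences with an unadjusted p below 0.05. Figures were drawn with matplotlib.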

Additional observations from a re-analysis of the deposited data

How the results depend on the processing

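Of 18 called differences of single genes, 9 were called under every alternative other than leaving out an array (Mmp13 and Mmp14 with LPS in all genotypes, Mmp9 in wt and MK2-/- and Mmp19 in MK2-/- BMDM), and these and the 3 Timp2 falls were also called whichever array was left out. The number of genes called for MK2-/- against wt under LPS (1) was 2 with 75th percentile scaling, normexp or a filter of 11 arrays, 4 with array weights, 3 with the methods' t-test unadjusted, and 0 with that test after Benjamini-Hochberg adjustment or with only the groups compared. For MK2/3-/- against wt under LPS (1) it was 2 with 75th percentile scaling, 3 with array weights, 2 with the unadjusted t-test, 2 without the arrays of low Y-linked signal (an alternative chosen after seeing the data), and 0 with the adjusted t-test or only the groups compared. For MK2-/- against wt in medium (1) it was 3 with the unadjusted t-test and 0 with the adjusted t-test, normexp, a 2-fold minimum or only the groups compared, and for MK2/3-/- against wt in medium (0) it was 1 with 75th percentile scaling, 2 with array weights and 1 with the unadjusted t-test. For LPS in MK2/3-/- BMDM (5) the adjusted t-test called 3. Over all genes, 75th percentile scaling raised the calls from 2480 to 4717 and from 5174 to 8152 (MK2-/- and MK2/3-/- against wt under LPS) and from 1811 to 4854 and from 369 to 4249 (the same in medium). The cause of these moves was not tested. Leaving out an array gave 3 to 5 for LPS in MK2/3-/- BMDM, 0 to 2 for MK2-/- against wt under LPS, 0 to 2 for MK2/3-/- against wt under LPS, 0 to 2 for MK2-/- against wt in medium and 0 to 1 for MK2/3-/- against wt in medium. Signs changed only among uncalled LPS differences: Mmp2 in MK2/3-/- BMDM was 0.11 with 75th percentile scaling and 0.0046 with normexp, Timp3 in MK2-/- BMDM was -0.0769 with array weights, and with an array left out Mmp2 ranged from -0.10 to 0.93 in wt, -0.94 to 0.0026 in MK2-/- and -0.89 to 0.73 in MK2/3-/-, Mmp12 from -0.62 to 0.46 in MK2/3-/-, Mmp19 from -0.48 to 0.061 in wt and Timp3 from -0.057 to 1.26 in MK2-/- BMDM.

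LPS and medium arrays of a genotype share replicate numbers and letters of the array names. By either, 7 of 10 pairs deviated together (r above 0.1, range -0.085 to 0.36 by number and -0.085 to 0.42 by letter). Arrays with the same letter came from mice of the same age in 10 of 10 pairs, and those with the same number in 8 of 10. Both arrays of low Y-linked signal share number and letter. No label names the animal. Apart from the block fits given for Mmp8, Timp1 and Timp3, the tests above are unpaired. Any spread that paired medium and LPS arrays share stays in the errors of the unpaired tests. A replicate block by number or by letter raised the count for MK2-/- against wt under LPS from 1 to 2 (Mmp2, adjusted p = 0.045) and moved no other count by more than 1.5 times. Mmp9 in medium was limited by its signal over background, and Timp1, Timp3 and Mmp2 by few arrays of wide spread.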
